A study of Mus with 2 samples.

Results

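Ccl8, Ccl6, Ccl2, Ccl7, Ccl9 and Ccl12 encode CC chemokines that draw monocytes and other myeloid cells into tissue. They are 6 of the 32285 features counted in each section, and they were chosen by values measured in these same sections (the level per section, the level by distance from the tissue outline and the level per spot). Their differences between sections and between regions are therefore descriptions, and no test was run on them. Attraction of cells was not measured.

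The measurements came from Visium, which captures polyadenylated RNA of a frozen tissue section on a grid of barcoded spots and counts each captured molecule once through its unique molecular identifier (UMI). Both sections were CT26 tumors, grown from 200000 cells of that mouse colon carcinoma line under the skin of female BALB/c mice aged 6 to 8 weeks. The control mouse received PBS, and the rIL7 mouse received 10 µg of recombinant mouse interleukin 7 (rIL7) into the peritoneum on days 11 and 13 after transplantation. Tumors were collected on day 15, with 1 section per group, so a difference between the sections cannot be told apart from a difference between individual mice, tumors, cutting planes or libraries.

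CC chemokines are small secreted proteins that act through receptors on leukocytes. Ccl2, Ccl7 and Ccl12 bind Ccr2, the receptor that brings inflammatory monocytes out of the bone marrow and into inflamed tissue. Mouse Ccl8 is an agonist of Ccr8, and Ccl6 and Ccl9 act through Ccr1. In tumors, macrophages, fibroblasts, endothelial cells and tumor cells are all known sources of such chemokines. A Visium spot can hold several cells of different types, so a level here belongs to a spot and not to a cell.

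After filtering, 2219 control spots held 22951678 UMIs and 1950 rIL7 spots held 25729233 UMIs, with medians of 9623 and 12921.5 UMIs per spot. The sections shared 1702 spot barcodes, since the same array design underlies both sections. The CT26 marker list (Rpl39l and Baiap2l1) was present in both sections, at 1293 counts per 1000000 UMIs (CPM) in the control and 1043 with rIL7. The macrophage list of 10 genes, all of them detected, summed to 3574 and 4031 CPM, while the monocyte list of 7 genes summed to 184 and 193 with Chil3 at 6 and 4 UMIs. The T cell list summed to 35.2 and 121 CPM and the neutrophil list to 139.9 and 251. In a section, fewer cells of a type and less RNA per cell cannot be told apart.

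All 6 genes lie on chromosome 11 (GRCm38), in a pair of stretches. The stretch of 81223 bases holds Ccl2 at chr11:82035577-82037452, Ccl7 at chr11:82045712-82047525, Ccl11 at chr11:82057832-82062955, Ccl12 at chr11:82101845-82103399 and Ccl8 at chr11:82115185-82116799. The other, of 20171 bases, holds Ccl9 at chr11:83572917-83578636 and Ccl6 at chr11:83587886-83593087. Between them lie 1456117 bases. Ccl8 and Ccl2 stand at opposite ends of the first stretch, and they had the largest and the smallest section difference of the 6 genes.

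The rIL7 section held more transcripts of each of the 6 genes, relative to all UMIs, than the control section, from 1.25 times for Ccl2 to 6.19 times for Ccl8. Summed over the 6 genes, the level was 1131 CPM in the control and 2292 with rIL7, a ratio of 2.03 (95% counting interval 2.00 to 2.06). Without Ccl8 the ratio was 1.58 (1.55 to 1.60). At least 1.5-fold higher levels were measured for 4 of the 6 genes, and for 1.97% of the 7613 genes that averaged 20 CPM or more over the sections. The section contrast was among the values that chose the genes, so nothing is read from that count. The median log2 ratio was 1.05 over the 6 genes and -0.0072 over the 7613.

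Ccl8, the Ccr8 agonist, was at 109.9 CPM in the control section (2522 UMIs) and 679.7 with rIL7 (17488 UMIs). The ratio was 6.19 (5.93 to 6.45), the sixth highest among the 7613 genes. Each section was also split into 4 quadrants, which show the spread within a section and are not replicates. Ccl8 ran from 80.0 to 143 CPM over the control quadrants and from 447 to 928 over the rIL7 quadrants, so the sections did not overlap. The spot with the most Ccl8 held 34 UMIs in the control and 136 with rIL7.

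Ccl6, a myeloid chemokine acting through Ccr1, was the least abundant of the 6 in the control section. It had 40.8 CPM there (936 UMIs) and 170.4 in the rIL7 section (4384 UMIs), a ratio of 4.18 (3.89 to 4.49) with a rank of 10 from the top. The control quadrants lay between 34.2 and 48.6 and the rIL7 quadrants between 132.7 and 221. Ccl9, its neighbour on the chromosome and a ligand of the same receptor, went from 89.9 to 129 CPM, a ratio of 1.44 (1.36 to 1.52). Its quadrants overlapped, at 81.5 to 100.1 in the control and 98.7 to 167 with rIL7.

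Among the Ccr2 ligands, Ccl2 was the most abundant of the 6 genes in both sections and differed least. It was at 644 CPM in the control and 804 with rIL7, a ratio of 1.25 (1.22 to 1.27). Its quadrants overlapped, at 547 to 746 and 704 to 883. Ccl7 went from 112 to 241 CPM (2.16, 2.06 to 2.27), and Ccl12 from 135 to 268 (1.99, 1.90 to 2.07). For both, all rIL7 quadrants (199.5 to 265 for Ccl7, 216 to 318 for Ccl12) lay above all control quadrants (90.5 to 135.5 and 119.8 to 159.8). Quadrants lay apart in this direction for 4 of the 6 genes, Ccl8, Ccl6, Ccl7 and Ccl12, and for 10.0% of the 7613 genes.

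**Figure D1:**
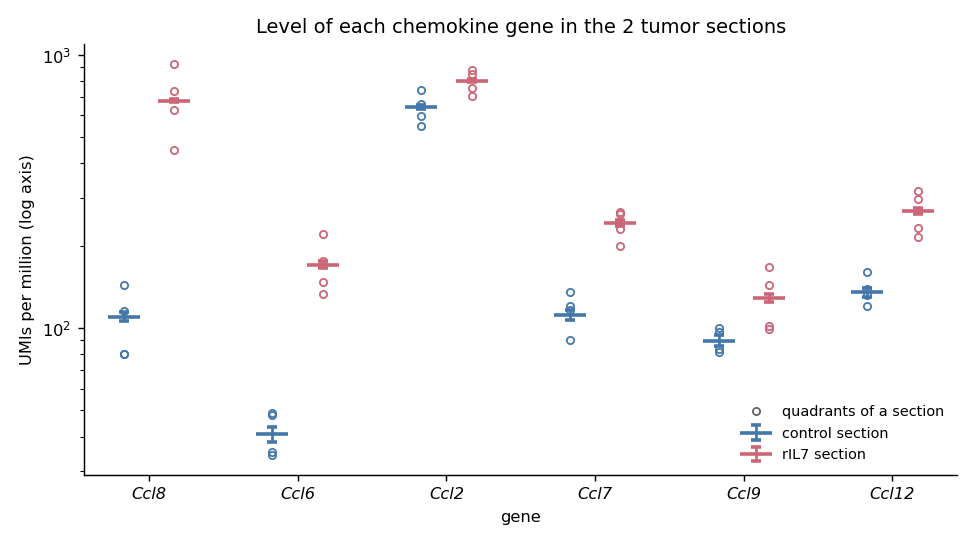
Level of each gene in CPM (log axis) in the control and rIL7 sections, with the section value as a bar with its 95% counting interval and the 4 quadrants of the section as open circles. Circles of the sections lie apart for Ccl8 (80.0 to 143 against 447 to 928), Ccl6, Ccl7 and Ccl12, and overlap for Ccl2 and Ccl9.

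More spots held the transcripts as well. Ccl8 was found in 50.6% of control spots (48.5 to 52.7) and 96.6% of rIL7 spots (95.7 to 97.3). The rIL7 spots were deeper, so each spot was also thinned to 5900 UMIs, leaving out 217 control and 81 rIL7 spots that were shallower. After thinning, the share of spots with a UMI was 37.1% and 86.5% for Ccl8, 20.1% and 52.4% for Ccl6, 46.9% and 71.3% for Ccl7, 51.1% and 74.5% for Ccl12, and 40.9% and 49.7% for Ccl9. Without thinning the Ccl6 shares were 31.6% and 74.9%. Ccl2 was near its ceiling in both sections, at 95.5% and 97.8% of thinned spots. The larger share of spots at equal depth goes with the higher level for Ccl8, Ccl6, Ccl7 and Ccl12, while for Ccl2 nearly every spot already held a transcript in the control.

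The mix of the 6 chemokines differed accordingly. Ccl2 made up 56.9% of their UMIs in the control section (56.3 to 57.5) and 35.1% in the rIL7 section (34.7 to 35.5). Ccl8 made up 9.72% (9.36 to 10.1) and 29.7% (29.3 to 30.0). The share of Ccl7 was 9.87% and 10.5%, and that of Ccl12 was 11.9% and 11.7%, so the Ccr2 ligands other than Ccl2 held nearly the same part of a larger sum.

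Distance from the outer outline of the tissue separated the genes further. Spots up to 2 grid steps from that outline were taken as the edge (401 control and 330 rIL7 spots), and the remainder of the main piece as the interior (1806 and 1599). Ccl8 was the gene with the steepest edge in both sections. In the control it was at 172 CPM at the edge and 94.2 in the interior, a ratio of 1.82 (1.67 to 1.99). In the rIL7 section it was at 1862 and 452, a ratio of 4.12 (3.99 to 4.24). The rIL7 edge ratio was 2.26 times the control one (2.06 to 2.47). With spots weighted equally, the edge ratios were 2.42 in the control and 4.45 with rIL7, a smaller gap in relative terms. The edge held 42.8% of all Ccl8 UMIs of the main piece in the rIL7 section, against 15.4% of the UMIs of all genes, and 30.7% against 19.6% in the control.

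The Ccl8 edge ratio was above 1 in all 4 quadrants of each section, from 1.499 to 2.78 in the control and from 3.60 to 4.82 with rIL7. An edge ratio of at least 1.5 was measured for 1 of the 6 genes in the control, Ccl8, and for 0.565% of the 7613 genes. In the rIL7 section it was measured for 2 of the 6, Ccl8 and Ccl6, and for 4.41% of the 7613 genes, but with an edge of 3 steps the Ccl6 ratio was 1.26, under that limit. The edge contrast was among the values that chose the genes. Over all 7613 genes the median log2 edge ratio was -0.057 in the control and -0.072 with rIL7.

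Ccl6 had no raised edge in the control section, at 37.1 CPM at the edge and 41.8 in the interior (ratio 0.889, 0.747 to 1.05, from 166 edge UMIs). In the rIL7 section it was at 242 and 156, a ratio of 1.55 (1.44 to 1.66). The rIL7 edge was uneven: the ratio was 0.935 and 1.01 in a pair of quadrants and 2.56 and 2.81 in the other pair. Ccl9 was at 81.4 CPM at the control edge and 92.1 in the interior (0.884, 0.787 to 0.991), and at 142 and 126 in the rIL7 section (1.13, 1.03 to 1.24). So the Ccr1 ligands sat at or below the interior level at the control edge and above it at the rIL7 edge.

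Ccl2 had the reverse layout. It was lower at the edge than in the interior of both sections, at 600.5 against 654 CPM in the control (0.918, 0.880 to 0.957) and 654 against 832 in the rIL7 section (0.786, 0.754 to 0.820). Its edge ratio was below 1 in all 4 rIL7 quadrants and in 3 of the 4 control quadrants. Ccl7 and Ccl12 were close to even: the Ccl7 edge ratio was 1.08 in both sections (0.980 to 1.19 and 1.01 to 1.16), and that of Ccl12 was 1.11 (1.02 to 1.21) in the control and 1.04 (0.970 to 1.11) with rIL7. The 3 Ccr2 ligands, encoded in the same stretch, thus had unlike layouts, with Ccl2 alone lower at the edge of both sections.

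At the rIL7 edge the mix was turned over. Ccl8 made up 54.2% of the UMIs of the 6 genes there (53.4 to 55.1) and Ccl2 19.0% (18.4 to 19.7). At the control edge Ccl8 made up 14.9% (13.9 to 15.9) and Ccl2 51.9% (50.6 to 53.3). The section ratio depended on the region for the same genes: it was 10.8 (10.1 to 11.7) at the edge and 4.80 (4.56 to 5.05) in the interior for Ccl8, and 6.51 (5.52 to 7.73) and 3.74 (3.46 to 4.05) for Ccl6. For Ccl7 it was 2.17 in both regions, and for Ccl2 it was 1.09 (1.03 to 1.15) at the edge and 1.27 (1.24 to 1.30) in the interior.

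Rings by distance from the outline gave the shape of these gradients. In the rIL7 section Ccl8 was at 2560 CPM in the outermost ring, 1261 in the second, 554 in the third and 445 in the fourth, and stayed between 399.6 and 483 further in. In the control it went from 195.5 in the outermost ring to 62.1 at 11 steps or more. Ccl8 was thus highest in the outermost ring of both sections, and its lowest ring was the deepest in the control only.

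Ccl6 in the rIL7 section was high at both ends, at 334 CPM in the outermost ring, 116 in the third and 199.6 at 11 steps or more. Ccl2 was highest in the deepest ring of both sections, at 732 CPM in the control and 985 with rIL7, against 597 and 643 in the outermost ring. Ccl12 stayed between 249 and 287 across the rIL7 rings and went from 161 in the third ring to 114.9 in the deepest ring of the control. Ccl7 had its highest rIL7 values at the ends, 269 in the outermost ring and 271 in the deepest.

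**Figure D2:**
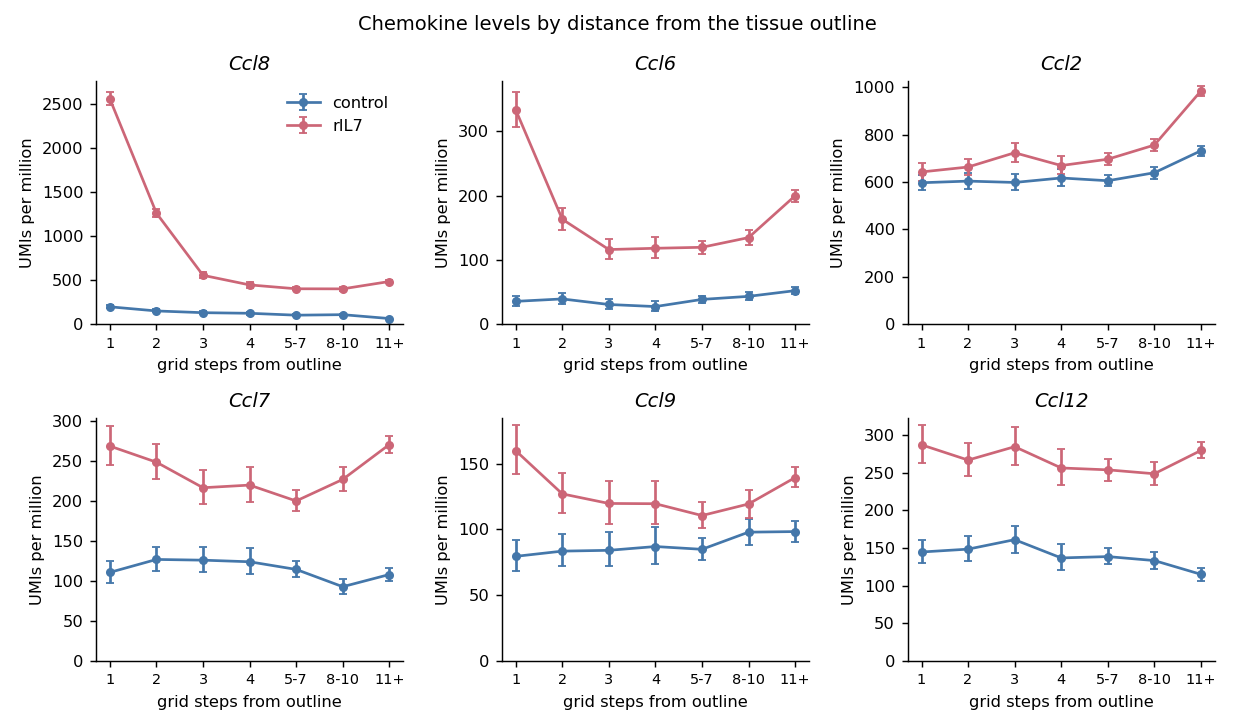
Level of each gene in CPM (linear axis from 0) against grid steps from the tissue outline, for the control and rIL7 sections, with 95% counting intervals. Ccl8 in the rIL7 section runs from 2560 in the outermost ring to 445 in the fourth, Ccl6 is high at both ends, and Ccl2 is highest in the deepest ring of both sections (732 and 985).

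Marker transcripts moved with these gradients, and their part in the chemokine levels was not tested. The macrophage list had an edge ratio of 1.12 in the control and 1.98 with rIL7, the monocyte list 1.75 and 2.30, the fibroblast list 0.977 and 1.72, and the T cell list 1.15 and 3.62. B and plasma cell transcripts, sparse elsewhere, had an edge ratio of 18.5 in the rIL7 section and 1.20 in the control. The keratinocyte list had edge ratios of 2.90 in the control and 0.756 with rIL7, and the adipocyte list 0.748 and 1.86. The outlines of the sections thus differed in marker transcripts of the tissue beside the tumor as well. The CT26 list had edge ratios of 0.916 and 0.691. In the interior alone, the macrophage list had a section ratio of 0.9997 and the monocyte list 0.998, while the interior ratios of Ccl8 and Ccl6 were 4.80 and 3.74.

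Set against macrophage transcripts over the whole section, the differences of Ccl8 and Ccl6 were nearly as large as before, while at the edge they were smaller. Ccl8 had 30.7 UMIs per 1000 UMIs of the macrophage list in the control and 169 with rIL7, 5.49 times as many, and Ccl6 had 11.4 and 42.3, 3.71 times as many. Ccl7 had 31.2 and 59.9, Ccl12 37.7 and 66.5, and Ccl9 25.2 and 32.0. Ccl2 had 180.1 and 199.4, a ratio of 1.11, with 154 and 94.7 at the edge. At the edge, Ccl2 was therefore lower per macrophage transcript in the rIL7 section (0.616 times the control). There the ratio per macrophage transcript was 6.12 for Ccl8 and 3.68 for Ccl6, against 10.8 and 6.51 per UMI of all genes, and it was 1.23 for Ccl7, 1.07 for Ccl12 and 0.988 for Ccl9, against 2.17, 1.89 and 1.75. Pooled over the edge, the differences of Ccl9 and Ccl12 were thus close to that of the macrophage list. Between edge spots with 2000 to 4000, 4000 to 6000 and 6000 to 10000 CPM of that list, section ratios stayed above 1. They were 1.62, 1.83 and 1.85 for Ccl9, 1.68, 1.69 and 1.80 for Ccl12, and 1.53, 2.10 and 2.215 for Ccl7. Under 2000 CPM, with 4 rIL7 edge spots, they were 0.875, 0.375 and 1.41. In the interior the ratios per macrophage transcript stayed at 4.80 for Ccl8 and 3.74 for Ccl6.

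Spots were then grouped by their own level of the macrophage list. Ccl8 was higher in the rIL7 section at every macrophage level compared: 4.80 times (3.92 to 5.90) in spots under 2000 CPM, 4.30 times from 2000 to 4000, 4.80 times from 4000 to 6000 and 6.00 times (5.38 to 6.70) from 6000 to 10000. Above 10000, 81 rIL7 spots held 3714 CPM of Ccl8, and the control had 1 spot. Within the interior the Ccl8 ratios over the same 4 groups were 4.98, 4.79, 4.80 and 5.39. The Ccl8 ratio over all spots was thus at least 4.30 at each of these macrophage levels.

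For Ccl6, Ccl9 and Ccl7 the ratio was larger in groups with more macrophage transcripts. Ccl6 was 1.90 times higher in the rIL7 section in spots under 2000 (1.52 to 2.40), 3.16 from 2000 to 4000, 5.25 from 4000 to 6000 and 9.82 from 6000 to 10000 (7.20 to 13.7). In the control Ccl6 was at 47.1 CPM (39.4 to 55.9) in the lowest group and 35.8 (25.8 to 48.45, on 42 UMIs) in the spots from 6000 to 10000. These intervals overlap, and among control edge spots the group from 6000 to 10000 was the highest of the 4, at 72.3 CPM on 14 UMIs. The rIL7 section had 89.7 and 352 CPM in the lowest group and in the spots from 6000 to 10000. The Ccl9 ratios followed the order of the Ccl6 ratios, at 0.990 (0.813 to 1.21), 1.22, 1.74 and 2.21 (1.78 to 2.76). Among edge spots alone the Ccl6 ratios were 5.78 from 2000 to 4000, 6.98 from 4000 to 6000 and 3.65 (2.15 to 6.75) from 6000 to 10000, with no such order (the lowest group had 4 rIL7 spots), and in the interior they were 1.81, 2.97, 4.80 and 16.2 (11.1 to 24.7).

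Ccl2 went the other way. Its ratio was 1.39 (1.30 to 1.49) in spots under 2000 and 0.955 (0.881 to 1.03) from 6000 to 10000. In the control Ccl2 was higher in spots with more macrophage transcripts (593 to 788 CPM), and in the rIL7 section it was lower there (825 to 753). The rIL7 edge, low in Ccl2 and rich in macrophage transcripts, is part of that pooled value. Within the rIL7 edge Ccl2 was at 403 (4 spots, 32 UMIs), 520, 715 and 737 CPM over the same groups, the order of the control. Above 10000, 78 rIL7 edge spots held 630 CPM of Ccl2 (577 to 687), under the 737 (691.5 to 786) from 6000 to 10000. The rising order at the rIL7 edge thus held up to 10000 only, and the control edge had no spots above that. Over the 4 groups, the section ratios of Ccl2 among edge spots were 0.944, 0.940, 1.08 and 1.01. Within the rIL7 interior Ccl2 was at 841.5, 846, 799.5 and 777 CPM, and the interior ratios were 1.39, 1.36, 1.12 and 0.966. Ccl12 had ratios between 1.85 and 2.05 in the 4 groups, so its section difference was even over macrophage levels, and Ccl7 had ratios from 1.52 to 2.66.

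**Figure D3:**
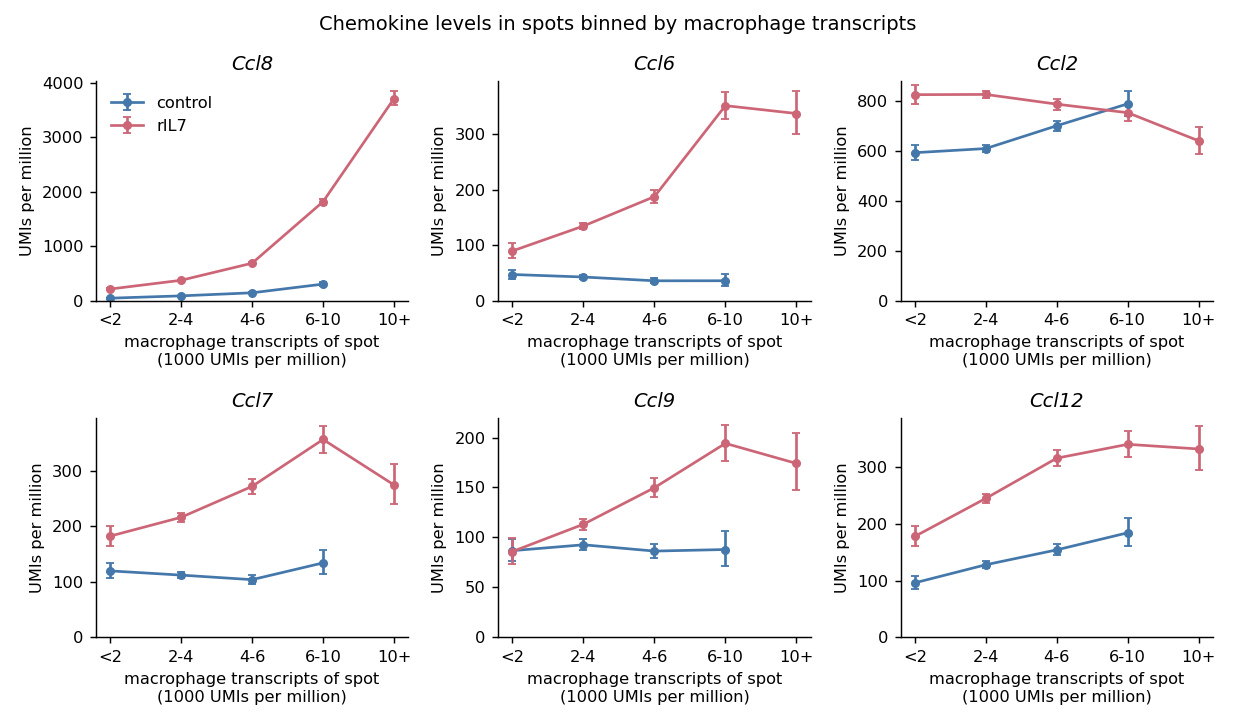
Level of each gene in CPM (linear axis from 0, 95% counting intervals) in spots grouped by their macrophage list level, for the control and rIL7 sections, with groups under 20 spots left out. Ccl8 is higher in the rIL7 section in every group, the Ccl6, Ccl9 and Ccl7 lines diverge to the right (Ccl6 352 against 35.8), and the Ccl2 lines cross (753 against 788 in the fourth group).

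Maps of the spots showed a feature that the rings average over. In both sections Ccl6 had a compact interior patch of high spots, well away from the outline. It was described after the maps were seen, as the disc of 3 grid steps radius (37 spots) with the highest Ccl6 level among complete interior discs. The centres lay 15 steps from the outline in the control and 13 with rIL7. Ccl6 chose the disc, so its level there is a description: 243 CPM (37 UMIs) against 40.1 in the other control interior spots, and 872 (689 UMIs) against 129 in the rIL7 section.

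The chemokines beside Ccl6 were unlike in the patches of the 2 sections. In the rIL7 patch Ccl8 was at 1707 CPM against 405 in the other interior spots (4.22, 3.98 to 4.47), Ccl9 at 391 against 116 (3.37, 2.98 to 3.80), Ccl7 at 523 against 228 (2.29) and Ccl12 at 521 against 257 (2.03). Ccl2 was at 897 against 829 (1.08, 1.002 to 1.17). In the control patch Ccl8 was at 46.0 CPM against 94.7 (0.486, 0.195 to 1.004, on 7 UMIs), Ccl9 at 32.9 against 92.6 (0.355, 0.115 to 0.830, on 5 UMIs) and Ccl2 at 763 against 653 (1.17, 0.964 to 1.40). High Ccl6 came with high Ccl8 and Ccl9 in the rIL7 patch, while in the control patch neither was above the other interior level.

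Marker lists and depth differed between the patches too. Neutrophil transcripts (S100a8, S100a9, Csf3r, Cxcr2 and Retnlg) were 24.5 times the other interior level in the control patch (22.2 to 27.1) and 3.91 times in the rIL7 patch (3.62 to 4.23). Macrophage transcripts were 0.545 times in the control patch (0.483 to 0.611) and 1.84 times in the rIL7 patch (1.78 to 1.89). The median spot of the control patch held 3420 UMIs against 9543 in other interior spots, and that of the rIL7 patch held 20767 against 13070. The genes with the largest ratios, named here after their values were seen, were Hcar2, a receptor for niacin and ketone bodies, and the neutrophil chemokine Cxcl2 in the control patch. In the rIL7 patch they were Hmox1, which degrades heme, at 1339 against 67.2 CPM, the heat shock gene Hspa1a, Cxcl2, Pf4 (platelet factor 4, also made by macrophages) at 2002 against 206, and the T cell chemoattractant Ccl5 at 1297 against 156. The part of these transcripts and of depth in the chemokine levels was not tested.

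Leaving the patches out, the section ratio was 3.76 for Ccl6, 5.87 for Ccl8 and 1.34 for Ccl9, against 4.18, 6.19 and 1.44 with them. The patches weighed more in the spots of 6000 to 10000 CPM of the macrophage list. There the Ccl6 ratio was 6.44 without the patches (4.69 to 9.05) against 9.82 with them, and 4.87 against 16.2 among interior spots. For Ccl9 it was 1.71 against 2.21, and for Ccl8 among interior spots 3.67 (3.17 to 4.27) against 5.39. Over the 4 groups without the patches, the Ccl6 ratios were 2.21, 3.20, 4.50 and 6.44, so their order was kept with a smaller span. The Ccl9 ratios among interior spots were 0.980, 1.17, 1.58 and 1.365 (0.988 to 1.88) without the patches. Those of Ccl7 over all spots were 1.53, 1.92, 2.51 and 2.37 (1.99 to 2.84). For both, the rise did not continue into the spots of 6000 to 10000 CPM. In the control group under 2000 CPM, 110 of 132 Ccl6 UMIs and 320 of 342 spots remained without the patch.

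**Figure D4:**
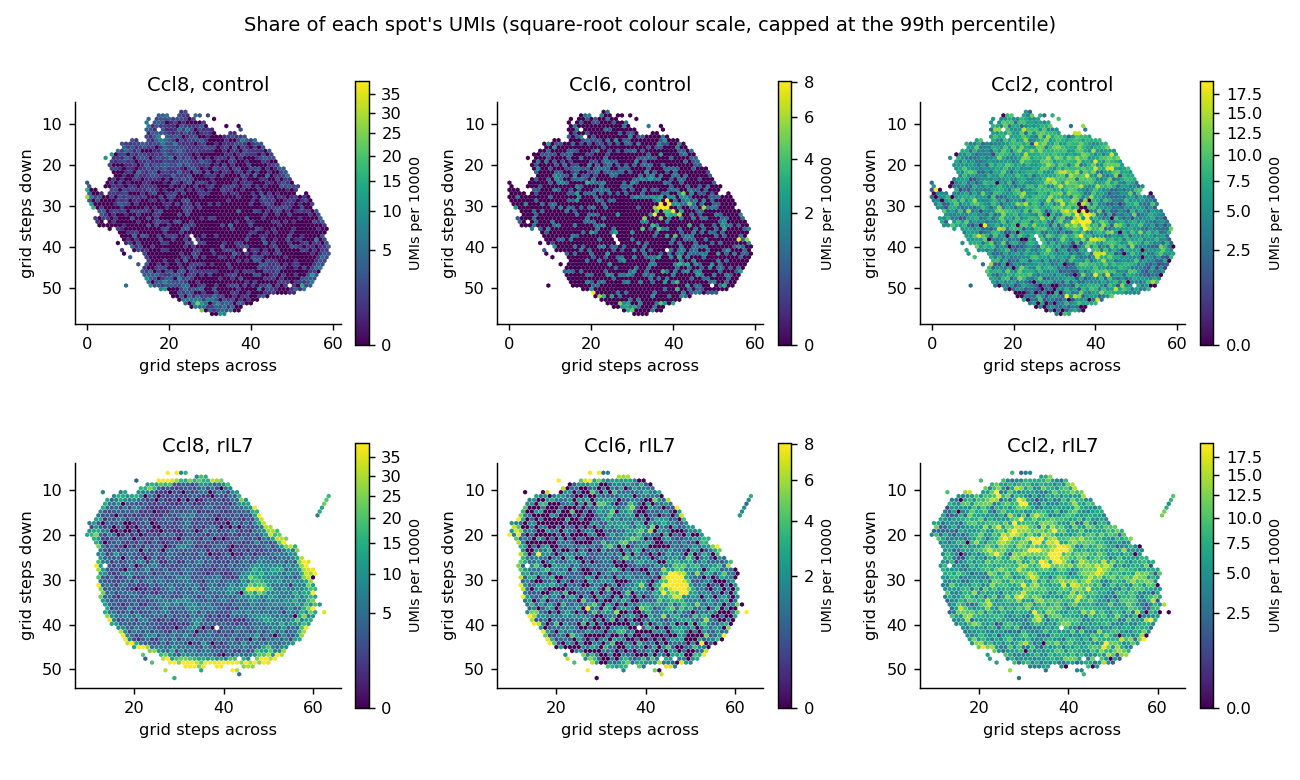
Maps of Ccl8, Ccl6 and Ccl2 in the control (top) and rIL7 (bottom) sections, each spot coloured by UMIs per 10000 UMIs of that spot on a square-root scale capped at the 99th percentile of both sections, with axes in grid steps. Ccl8 is bright along the rIL7 outline, and Ccl2 is spread through the interior. The interior disc with the highest Ccl6 level is at 243 CPM in the control and 872 with rIL7. Spots of the control disc hold as few as 645 UMIs, so a single UMI weighs more in their colour.

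Spot by spot, the rank correlations among the 6 genes were low, and sparse counts hold such values down. Spearman's rho across thinned spots (2002 in the control, 1869 in the rIL7 section) had a median of 0.0215 over the 15 pairs in the control and 0.078 with rIL7. Spots share a library and lie beside each other, and at these counts most of the variation between spots is counting noise, so weak values carry no finding. The highest pair in the rIL7 section was Ccl8 with Ccl6 (0.215, and 0.0228 in the control), but the order of pairs depended on the measure. Among interior rIL7 spots Ccl8 with Ccl7 had 0.155 and Ccl8 with Ccl6 0.152, and with counting noise removed Ccl6 with Ccl9 had 0.735 over the section and Ccl8 with Ccl6 0.49. The Ccl6-rich patch is part of these values. In separate draws, leaving it out took rho from 0.217 to 0.184 for Ccl8 with Ccl6 and from 0.0947 to 0.063 for Ccl6 with Ccl9. Noise-removed values were not computed without the patch. Over all thinned spots Ccl8 with Ccl7 had a rho of 0.161 with rIL7 and 0.0539 in the control, Ccl7 with Ccl12 0.149 and 0.0522, Ccl2 with Ccl7 0.13 and 0.0455. Ccl8 with Ccl2 had -0.053 and -0.0148, the lowest pair in the rIL7 section. Ccl8 with Ccl12 had 0.137 and 0.0886, and Ccl8 with Ccl9 0.116 and -0.0157. The genes had more UMIs in thinned rIL7 spots, which raises the rho that can be reached there. With counting noise removed, Ccl8 with Ccl7 had 0.344 with rIL7 and 0.345 in the control, and Ccl7 with Ccl12 0.656 and 0.622. Ccl8 with Ccl12 was lower with rIL7 (0.202 and 0.419). Ccl2 with Ccl7 (0.529 and 0.309) and Ccl8 with Ccl9 (0.432 and 0.0207) were higher. The Ccr2 ligands Ccl2, Ccl7 and Ccl12 had a median rho among themselves of 0.13 in the rIL7 section and 0.0455 in the control.

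Ties to marker lists were strongest for Ccl8. Its rho with the macrophage list was 0.22 in the control and 0.55 with rIL7 (0.211 and 0.408 among interior spots), and with the CT26 list -0.0912 and -0.248. Its rho with T cell transcripts was 0.0345 and 0.291 (0.0227 and 0.128 among interior spots). Ccl6 had -0.0359 with the macrophage list in the control and 0.186 with rIL7. Ccl2 had 0.12 in the control and -0.0602 with rIL7, the sign change seen in the macrophage groups. These lists have many more UMIs per spot than the single chemokines, which raises the rho that can be reached.

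**Figure D5:**
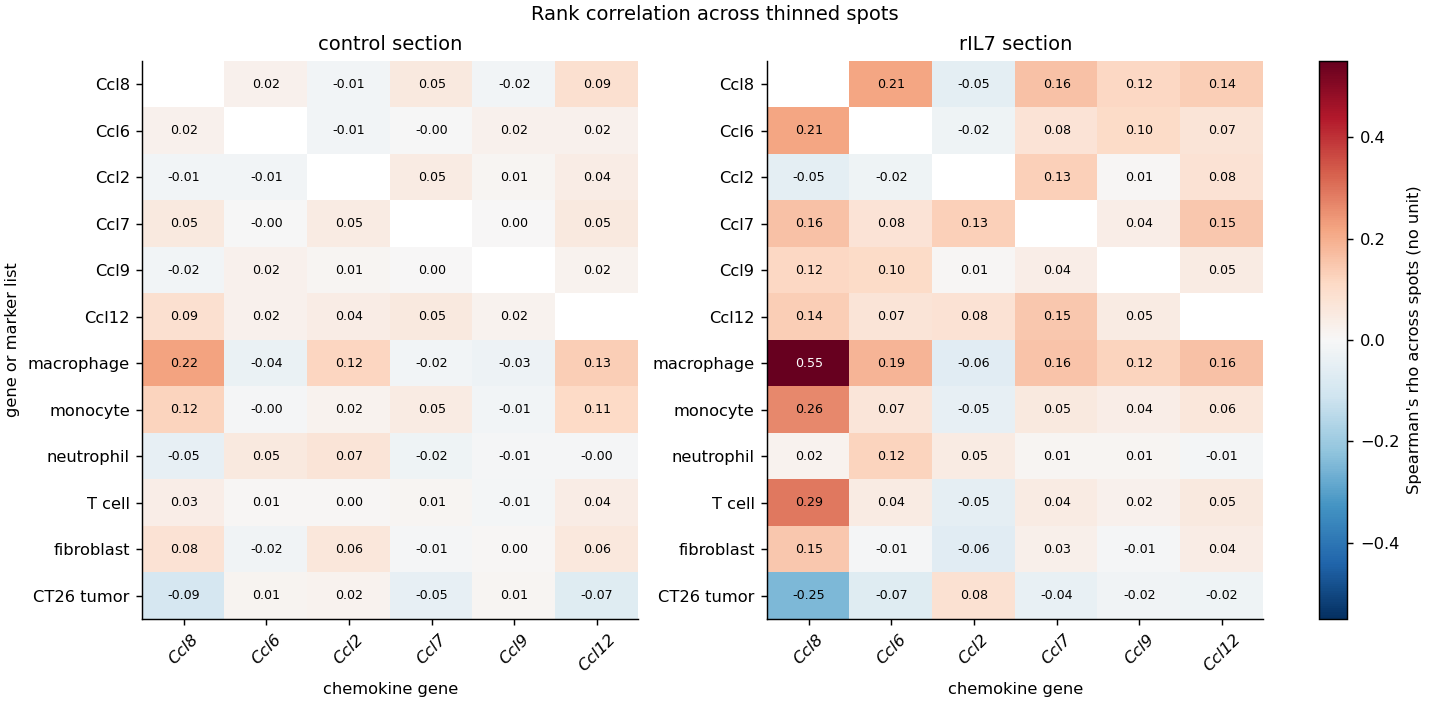
Spearman's rho across thinned spots (2002 control, 1869 rIL7) between each chemokine gene (columns) and the other chemokines and marker lists (rows), without unit, for each section. The strongest cell is Ccl8 with the macrophage list in the rIL7 section (0.55), pairs of chemokines range from -0.053 to 0.215, and Ccl2 with the macrophage list is 0.12 in the control and -0.0602 with rIL7.

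Among all 7613 genes, those most like each chemokine by rho averaged over both sections included several genes of macrophages. For Ccl8 they were Apoe, a lipid carrier of macrophages (0.369), Tmsb4x, which encodes an actin-binding peptide (0.31), and Lyz2, the lysozyme of myeloid cells (0.296). For Ccl6 the closest non-member genes were Wfdc17, a small secreted protein of macrophages (0.119), Ftl1, the ferritin light chain (0.107), and Pf4 (0.106). For Ccl12 they were Lyz2 (0.121), the interferon-induced Cxcl10 (0.12) and Irf7 (0.113). Ccl7 was closest to its fellow chemokines Ccl8 (0.108) and Ccl12 (0.101), then to Ms4a6d (0.0937), Pf4 (0.0829) and Fcer1g (0.0799), and Ccl9 to Lyz2 (0.0971), Wfdc17 (0.0523) and Stab1 (0.0507), a scavenger receptor of macrophages.

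Ccl2 stood apart here as well. Its closest genes were Cxcl5 (0.159), a neutrophil chemokine, Il1rl1 (0.133), the receptor for interleukin 33, and Cebpd (0.102), a transcription factor of the inflammatory response. For the 6 genes summed, the closest were Lyz2 (0.311), Apoe (0.252), C1qa (0.242), Tmsb4x (0.24) and C1qb (0.22), where C1qa and C1qb encode chains of the complement component C1q. All of these rho values are low to moderate and none has a test.

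How smoothly each gene varied was described by its spread over spots beyond counting noise, as a coefficient of variation. Over whole sections Ccl8 had the highest value, at 1.36 in the control and 1.24 with rIL7, then Ccl6 at 0.936 and 1.0. The step between edge and interior is part of the Ccl8 value: within the rIL7 interior Ccl8 was at 0.776 and Ccl6 at 1.08, and within the control interior they were at 0.967 and 0.942. Ccl2 was among the more even ones, at 0.397 and 0.389. Ccl9 was at 0.206 in the control and 0.551 with rIL7, where neighbouring spots had a noise-removed correlation of 0.571 against 0.134 at a distance of 8 steps. Over the 6 genes the correlation with the next spot lay between 0.456 and 0.676 with rIL7 and between 0.401 and 0.978 in the control, and at 5 steps between 0.15 and 0.291 and between 0.0709 and 0.482, so high spots lay together in both sections. The size of the control values is uncertain for sparse genes. The 0.978 is that of Ccl6, at 0.422 UMIs per spot, and Ccl9 had 0.865, 0.217 and 0.651 at 1, 2 and 3 steps. Noise-removed values can exceed 1, as for Ccl6 with the neutrophil list in the control (1.11).

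Ccr1 and Ccr2, receptors of these chemokines, differed less between the sections than Ccl8 and Ccl6. Ccr2 was at 81.1 CPM in the control and 62.7 with rIL7, a ratio of 0.774 (0.723 to 0.827). Ccr1, the receptor of Ccl6 and Ccl9, was at 42.2 and 39.8 (0.945, 0.864 to 1.03). Ccr8 had 0 UMIs in both sections, and a limit of 3 UMIs for a count of 0 allows up to 0.131 CPM in the control and 0.117 with rIL7. Transcripts of Ccr1 and Ccr2 were thus close to even between sections or lower, and that of the mouse Ccl8 receptor was not detected at this depth.

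Of the 8 receptors and decoy receptors counted, 5 had at least 20 UMIs over both sections. Of these, 3 were at least 1.5-fold higher in the rIL7 section: Ccrl2, an atypical receptor, from 6.19 to 10.8 CPM, Ccr3, the eotaxin receptor, from 3 to 19 UMIs, and Ackr1, the chemokine-binding protein of venules, from 9 to 34 UMIs. None was at least 1.5-fold lower, and the median log2 ratio was 0.81. Of all 14313 features with at least 20 UMIs over both sections, 7.72% passed the 1.5-fold limit upward in the rIL7 section and 5.95% downward, with a median log2 ratio of -0.0022. Summed, the receptor list was lower in the rIL7 section, at 130.3 and 115.6 CPM (0.887, 0.843 to 0.934), and Ccr2 and Ccr1 held most of its UMIs. At the edge Ccr2 had a ratio of 0.997 in the control and 1.40 with rIL7.

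Most of the other CC chemokines with enough UMIs were also higher in the rIL7 section. Of 15 on the list, 9 had at least 20 UMIs, 8 of these were at least 1.5-fold higher in the rIL7 section and 0 were at least 1.5-fold lower, with a median log2 ratio of 1.1, beside 7.72% and 5.95% of all features under the same limit. The exception was Ccl25, the thymus and gut chemokine, at 0.772 (0.650 to 0.915). The largest ratio was that of Ccl19, a ligand of Ccr7, on 3 and 34 UMIs (10.1, 3.18 to 51.4), counted over 2 annotated features of that name. Of its rIL7 UMIs, 31 lay at the edge, and in the interior it had 3 and 2 UMIs (0.567, 0.0473 to 4.95). Ccl22, a ligand of Ccr4, had 14 and 139 UMIs (8.86, 5.10 to 16.6). Ccl11 (eotaxin), which lies between Ccl7 and Ccl12, was at 3.53 and 14.6 CPM (4.14, 3.25 to 5.33) with quadrants apart. Many genes of this list are sparse, and low counts pass a fold limit more easily.

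Cytokines known to induce these chemokines were next. Of 10 on the list, 7 had at least 20 UMIs and 3 of them were at least 1.5-fold higher in the rIL7 section, with 0 at least 1.5-fold lower and a median log2 ratio of 0.34, against the same 7.72% and 5.95% of all features. Interferon gamma (Ifng) had 53 and 142 UMIs (2.39, 1.73 to 3.34), Il6 had 90 and 189 UMIs (1.87, 1.45 to 2.43) and Il1a had 6 and 53 UMIs (7.88, 3.39 to 22.4). The abundant members differed less: Csf1, the macrophage growth factor, was at 235 and 261 CPM (1.11, 1.07 to 1.15), and Il1b at 132 and 167 (1.26, 1.21 to 1.32). Tnf was at 7.54 and 8.24 (1.09, 0.890 to 1.34) over the section, but its ratio was 3.55 (2.26 to 5.75) at the edge and 0.752 (0.589 to 0.958) in the interior.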

How the data were processed

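Visium UMI counts of 2 CT26 tumor sections, 1 per group, were used as deposited. The authors made the counts with Space Ranger 1.1.0 on mm10; the deposited matrices hold raw counts per feature and spot, and other deposited columns give spot barcodes, the tissue flag and the array row and column. The 6 genes and the 18 gene lists were chosen with earlier results of these data known. Tissue spots with under 10% mitochondrial UMIs and over 200 genes were kept, as in the study's methods. UMIs were summed per section or region and divided by its total (counts per 1000000 UMIs, CPM), so levels of different genes are per molecule and not divided by length. Since each group holds 1 section, there are no tests and no p-values.

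Intervals (95%) were exact Poisson for sums, Clopper-Pearson for shares and for ratios of sums, and a normal approximation on the log scale for ratios of edge ratios. They cover counting error only. The edge comprised spots up to 2 grid steps from the outline of the main (largest connected) piece of tissue, and quadrants were cut at the median array row and column. For rho, spots were thinned to 5900 UMIs in 20 draws. Noise-removed correlations and coefficients of variation subtract the Poisson variance. The noise-removed correlation between genes was checked on simulated data. The coefficients of variation and the correlations between spots at a distance were not. A list gene was counted when it had at least 20 UMIs over both sections. Named genes were the 6 members, list extremes with Ccr1, Ccr2 and Ccr8, the 5 non-members with the highest rho to the sum and the 3 to each member, among genes with a mean CPM of at least 20. Any other gene is named after its values were seen. A gene of the receptor list is not reported here and was left out of its counts. Alternatives covered the spot filter, denominators, spot weights, TMM (edgeR 4.0.16) and median-of-ratios (DESeq2 1.42.0) scaling, edge width, the array frame, thinning, spatial scale and the correlation measure. Coordinates are those of RefSeq on GRCm38, matched by symbol for 6 of 6 members. Python 3.11.15, numpy 2.4.6, scipy 1.17.1 and pandas 2.3.3 were used. Image scale factors were not used here.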

Additional observations from a re-analysis of the deposited data

Results flagged for a closer look

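Ccl9, a ligand of Ccr1, was lower at the edge than in the interior of the control section (0.884) and higher at the edge of the rIL7 section (1.13), with counting intervals that did not reach 1 on either side. It was flagged because the sections lay on opposite sides of an even level. With 1 section per group, whether the difference exceeds that between mice was not tested. Over quadrants the Ccl9 edge ratio ran from 0.690 to 1.17 in the control and from 1.02 to 1.58 with rIL7.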

How the results depend on the processing

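No paired analysis was possible because each group has 1 section and no test was run. The summed section ratio (2.03) was 1.84 in interior spots, 2.97 in edge spots, 1.95 without the Ccl6-rich patches and 1.58 without Ccl8. The summed edge ratio of the rIL7 section (1.66) was 2.00 for an edge of 1 step, 1.44 for 3 steps and 1.78 with spots weighted equally, and it turned to 0.971 without Ccl8; the control value (1.03) also crossed 1 without Ccl8, at 0.956. The median rho among the 6 genes (0.0215 control, 0.078 rIL7) was 0.0399 and 0.121 without thinning, 0.131 and 0.215 for spots summed with their neighbours, and 0.158 and 0.344 with counting noise removed. Leaving out Ccl8, leaving out the patches (also by macrophage level) and removing the noise were chosen after seeing the data. At a mean of at least 5 CPM, 350.0 genes were at least 1.5-fold higher and 236 lower in the rIL7 section, against 150 and 97 at a mean of 20, and 63 and 15 at 2-fold. Spot filters, TMM and median-of-ratios scaling, other denominators and the array frame left these ratios within their intervals or 1.5 times the count. For single genes, 112 of 138 alternative values stayed within the counting interval and 26 moved. Of the 138, 1 crossed 1: the control edge ratio of Ccl7, whose interval spans 1, was 0.990 for an edge of 1 step against 1.08. Edge spots alone moved Ccl8 and Ccl6 by over 1.5 times. Depth limits Ccl6 in the control most, at 936 UMIs.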

Other observations

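Chemokines of the CXC, CX3C and XC classes were higher in the rIL7 section for most listed genes with enough UMIs. Of 17 on the list, 14 had at least 20 UMIs, 10 of these exceeded the control by 1.5-fold or more and 0 fell short of it by that much, with a median log2 ratio of 1.28, beside 7.72% and 5.95% of all 14313 features with at least 20 UMIs. Cxcl5, which attracts neutrophils, was at 87.0 CPM in the control and 258 with rIL7 (2.97, 2.82 to 3.12), and was lower at the edge than in the interior of both sections (0.469 and 0.315). Cxcl9, the interferon-induced ligand of Cxcr3, was at 56.5 and 170.2 (3.01, 2.83 to 3.20), with edge ratios of 1.38 and 3.48. Cxcl12, a stromal chemokine, had 90 and 507 UMIs (5.03, 4.01 to 6.36), and its edge ratio was 1.12 in the control and 12.3 with rIL7. Cxcl16 was at 189.9 and 171.7 CPM (0.904, 0.867 to 0.943), the lowest ratio among the 14 genes.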
